A study of Mus musculus with 12 samples.

Results

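Cells that shrink in a hyperosmotic medium regain volume by taking up salt, and 8 genes of this response and of ion balance were followed here through sorbitol treatment of mouse embryonic stem cells. The genes were Slc12a2, Slc9a9 and Atp1b1, which encode transporters, Wnk1, Oxsr1, Stk39 and Sgk1, which encode kinases, and Lrrc8a, which encodes a channel subunit. They were chosen by name, as listed genes of regulatory volume increase and ion balance, out of 55266 genes whose transcript counts were summed. The choice was made with earlier results of these data known. Of the 8, 7 had counts, and 6 reached 10 counts in at least 2 libraries and were tested together with 19384 genes in all.

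The cells were of E14, a mouse embryonic stem cell line, and all groups carried the genotype 2C::3xtbGFP, in which turboGFP (tbGFP) reports the 2-cell-like state. In that state, a small part of a stem cell culture transiently expresses genes of the 2-cell embryo. The cells had been expanded in serum and LIF with the kinase inhibitors CHIR99021 and PD0325901 and were plated without the inhibitors. They received sorbitol, a sugar alcohol that raises osmolarity, for 0, 6 or 24 h, and 50000 cells per sample were sorted as tbGFP-positive or tbGFP-negative. This gave 6 groups of 2 libraries of total RNA: tbGFP-negative and tbGFP-positive cells at 0 h, at 6 h and at 24 h. The labels give 48 hours of culture for all groups, and state neither the dose of sorbitol nor when in those hours it was added. They do not say whether the line is 1 clone, or whether replicates came from separate cultures. P-values therefore measure only how far these samples spread, and that spread may be technical. In bulk RNA of this kind, fewer cells of a type and less RNA per cell cannot be told apart.

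Hyperosmotic shrinkage is sensed in part through crowding inside the cell, which acts on the WNK kinases. WNK kinases phosphorylate and activate the kinases encoded by Oxsr1 and Stk39, with the scaffold protein encoded by Cab39 as a cofactor. These in turn phosphorylate and activate the sodium-potassium-chloride cotransporter encoded by Slc12a2, which brings in salt and, with it, water. The sodium pump, of which Atp1b1 encodes a beta subunit, then exports sodium. Sodium-proton exchangers, the family of Slc9a9, add sodium in exchange for protons. Lrrc8a encodes the obligatory subunit of the volume-regulated anion channel, which works in the opposite direction in swollen cells, and the kinase encoded by Sgk1 regulates several ion channels and transporters. Much of this control acts on proteins, through phosphorylation, which RNA counts do not show.

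The libraries held 2306870 to 7900178 counts. Summed over 7 markers of embryonic stem cells, all libraries held 2335 to 3707 CPM (counts scaled to the library size). Summed over 7 markers of 2-cell-like cells, tbGFP-positive libraries held 20683 to 39326 CPM and tbGFP-negative libraries 11.5 to 25.7 CPM at 0 h, 34.6 to 46.1 CPM at 6 h and 520 to 546 CPM at 24 h. The sorted fractions thus carried the markers of their labels. Slc5a3 and Akr1b3, osmotic response genes used as a check of the treatment, summed to 51.2 to 78.0 CPM at 0 h and to 345 to 416 CPM at 6 and 24 h. Thinned to 2305061 counts, the tbGFP-positive libraries at 6 h held the fewest genes, 17035 and 16525, then replicate 2 of tbGFP-positive cells at 0 h with 17605, against 18674 to 22908 in the other 9. Summed over 6 fibroblast or feeder markers, tbGFP-positive libraries held 7.63 to 27.1 CPM and tbGFP-negative libraries 3.39 to 12.6 CPM. Of these markers, Postn and Pdgfrb had 0 counts in all libraries. For Pdgfrb this says little, since only 126 of its 5478 exon bases could be assigned to a single transcript. The part of feeder cells and of the low gene number in the results below was not tested.

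What could be counted differed between the genes. The deposited counts are per transcript, and of 35022 transcripts without an exon base of their own, 14 had any counts, against 76.9% of those with a run of at least 200 such bases. The counts thus rested almost only on bases that belong to 1 annotated transcript, called countable bases here. The measure is approximate, since those 14 transcripts held 4234 counts. Slc12a2 (ENSMUSG00000024597.11, chromosome 18, 57878678 to 57946821, plus strand, GRCm38) had 10840 countable of 10920 exon bases and 18989 counts over the 12 libraries. Oxsr1 (ENSMUSG00000036737.12, chromosome 9, 119238432 to 119322427, minus strand) had 3046 of 5350 and 14621 counts. Atp1b1 (ENSMUSG00000026576.12, chromosome 1, 164437109 to 164458355, minus strand) had 1776 of 3081 and 7745 counts. On its own strand 2351 of its bases belonged to 1 transcript, the overlap with Nme7 on the opposite strand brought these to 1776, and the other bases are shared among its own transcripts. These 3 genes were well counted. Wnk1 (ENSMUSG00000045962.16, chromosome 6, 119923969 to 120038672, minus strand) had 8928 of 22825 and 2044 counts, which lay on 11 of its 26 annotated transcripts. Slc9a9 (ENSMUSG00000031129.9, chromosome 9, 94669909 to 95230445, plus strand) had 4964 of 5679 and 607 counts. The remaining genes were poorly measured or not at all. Sgk1 (ENSMUSG00000019970.15, chromosome 10, 21882184 to 21999903, plus strand) had 1476 of 4903 and 148 counts. Stk39 (ENSMUSG00000027030.15, chromosome 2, 68210445 to 68472268, minus strand) had 1577 of 4955 and 2 counts. Lrrc8a (ENSMUSG00000007476.18, chromosome 2, 30237715 to 30263790, plus strand) had 5 of 4308 and 0 counts, so its RNA could not be measured in these files, and its 0 counts set no limit on its level.

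**Figure D1:**
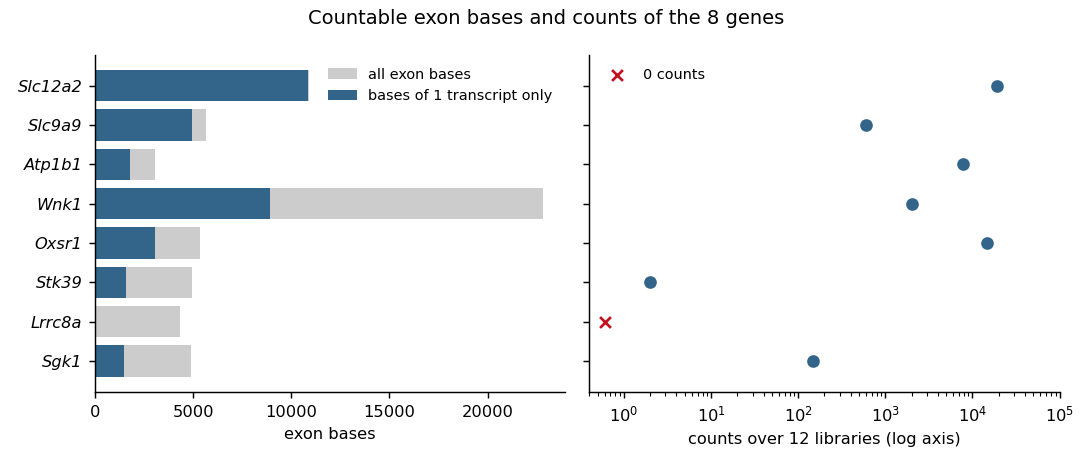
Left, exon bases of each of the 8 genes (grey) and those that belong to 1 transcript only (blue). Right, counts of each gene summed over the 12 libraries, on a log axis, with a cross for 0 counts. Slc12a2 and Oxsr1 had 18989 and 14621 counts, while Stk39 had 2 and Lrrc8a 0.

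Per kilobase of countable exon, the order of the group mean levels differed between the ends of the design. In tbGFP-negative cells at 0 h, Oxsr1 was at 74.9 CPM per kb, Atp1b1 at 39.3, Slc12a2 at 20.2, Wnk1 at 2.61, Sgk1 at 1.48 and Slc9a9 at 0 CPM per kb. In tbGFP-positive cells at 24 h, Atp1b1 was at 52.2 CPM per kb, Oxsr1 at 47.6, Slc12a2 at 34.5, Slc9a9 at 4.50, Wnk1 at 3.00 and Sgk1 at 1.89 CPM per kb. By this measure the regulator Oxsr1 and the transporters Atp1b1 and Slc12a2 were the most abundant of the measured genes in both groups. The measure is rough, since it divides all counts of a gene by the countable bases of all its transcripts. For Slc12a2, 4400 of 10840 countable bases lay on Slc12a2-202, annotated as a retained intron, which held 118 of 18989 counts. For Oxsr1, 574 of 3046 countable bases lay on the retained intron Oxsr1-203, which held 151 of 14621 counts. For Atp1b1, 1275 of 1776 lay on Atp1b1-201, which held 7500 of 7745 counts. The values per kb of Slc12a2, Oxsr1 and Atp1b1 are therefore low estimates. Of the Wnk1 counts, 88.4% lay on transcripts annotated as retained introns.

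Between the sorted fractions, 1 of the 6 tested genes was called at 0 h, where 7.11% of all tested genes were. At 6 h 3 were called, against 12.1% of all genes, and at 24 h 2, against 5.46%. The calls were of Slc9a9 (higher in tbGFP-positive cells at all 3 times), Wnk1 (higher at 6 h) and Oxsr1 (lower at 6 and 24 h). Slc9a9 passed the filter on low counts through its tbGFP-positive libraries alone, so its place in these counts is no support for them. Called means a p below 0.05 from edgeR's quasi-likelihood test after adjusting over all 19384 genes by Benjamini-Hochberg, and adjusted p-values are from this test unless another tool is named. The median log2 fold change of the 6 genes was -0.02, 0.71 and 0.07 at 0, 6 and 24 h, also with Slc9a9 at its bound. Over all genes tested it was 0, -0.07 and -0.05. The bound does not undo how Slc9a9 passed the filter, so these medians are no support either. Apart from Slc9a9, the values at 6 h were 3.15 for Sgk1, which rested on 1 library, and 1.11 for Wnk1. They were 0.31 for Slc12a2, -0.11 for Atp1b1 and -0.78 for Oxsr1.

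Over time in tbGFP-negative cells, 1 of the 6 genes was called at 6 h against 0 h (4.44% of all genes), 1 at 24 h against 0 h (3.99%) and 1 at 24 h against 6 h (7.91%). They were Atp1b1, Atp1b1 and Slc12a2, all higher at the later time. In tbGFP-positive cells Wnk1 was called at 6 h against 0 h (1 of 6, 5.9% of all genes) and Slc12a2 at 24 h against 6 h (1 of 6, 8.8%), again higher at the later time. At 24 h against 0 h in tbGFP-positive cells edgeR called 0 of the 6, and 0.552% of all genes. There 2 had an unadjusted p under 0.05, and DESeq2 called 0. The comparisons over time share libraries with each other and with those between fractions. With Slc9a9 left out of the tbGFP-negative comparisons, where it was at or under 3 counts in both groups, the members' median log2 fold changes were -0.05, 0.34 and 0.16 in tbGFP-negative cells at 6 against 0 h, 24 against 0 h and 24 against 6 h. Those of all genes were 0.05, 0.23 and 0.16. In tbGFP-positive cells the members' medians were 0.20, 0.32 and 0.01, against -0.05, 0.09 and 0.13.

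The interaction terms compare the gap between fractions at 6 or 24 h with that at 0 h. At 6 h edgeR called 0 of the 6 genes, against 0.17% of all genes, 1 gene had an unadjusted p under 0.05, and DESeq2 called 1. At 24 h edgeR called 0, against 0.97% of all genes, 1 had an unadjusted p under 0.05, and DESeq2 called 0. For none of the 6 was a response that differed between the fractions called by edgeR with all libraries. For Slc9a9 the term at 24 h could not decide this. Its tbGFP-negative libraries had 0 counts at 0 and 24 h, and the value was 0.19 with an SE of 364.

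**Figure D2:**
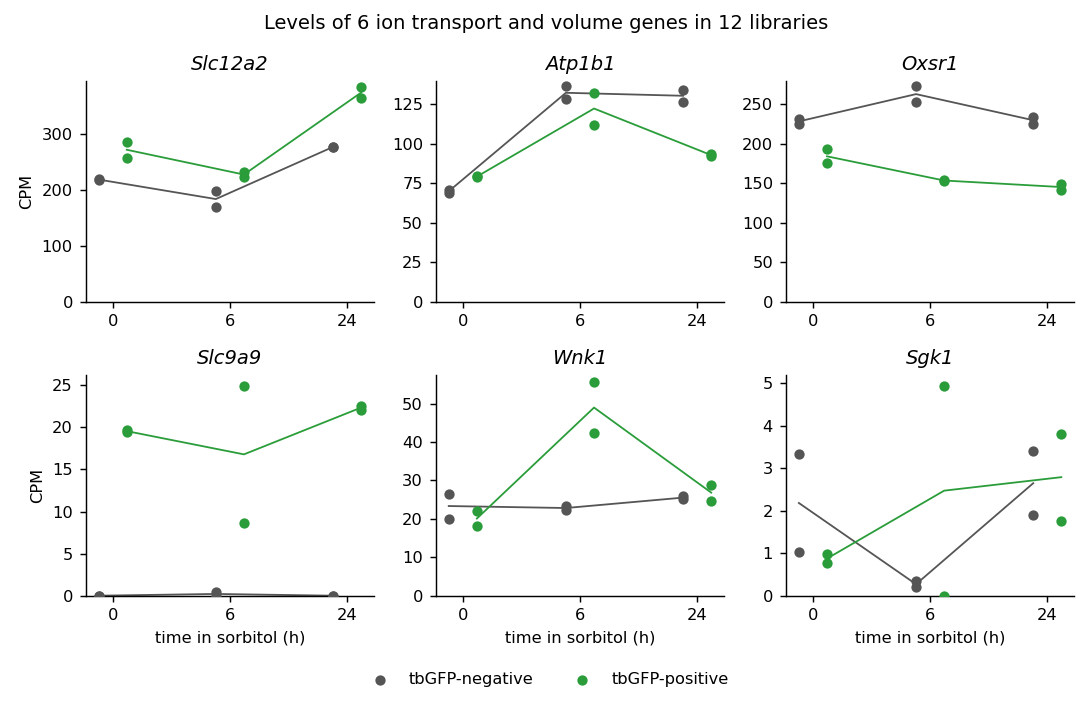
Levels of 6 genes in CPM (y axis) by hours of sorbitol (x axis, evenly spaced categories), with 1 point per library in tbGFP-negative (grey) and tbGFP-positive (green) cells, and lines through group means. Slc9a9 reached 8.62 to 24.95 CPM in tbGFP-positive libraries and at most 0.414 CPM in tbGFP-negative ones, and the 2 Wnk1 values of tbGFP-positive cells at 6 h, 42.4 and 55.5 CPM, lie above the other 10.

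Slc12a2, the cotransporter at the end of the WNK pathway, had its highest levels at 24 h in both fractions. In tbGFP-negative cells it was at 218 and 219.7 CPM at 0 h, 199 and 169 CPM at 6 h, and 277 and 277 CPM at 24 h. In tbGFP-positive cells it was at 258 and 286 CPM at 0 h, 223 and 232 CPM at 6 h, and 365 and 384 CPM at 24 h. Within each fraction the libraries at 6 h were the lowest and those at 24 h the highest. From lowest to highest mean the order was tbGFP-negative at 6 h, tbGFP-negative at 0 h, tbGFP-positive at 6 h, tbGFP-positive at 0 h, tbGFP-negative at 24 h and tbGFP-positive at 24 h, and of these neighbours only the fourth and the fifth overlapped.

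From 6 to 24 h the log2 fold change of Slc12a2 was 0.59 ± 0.15 (SE) in tbGFP-negative cells (adjusted p = 0.0282) and 0.72 ± 0.15 in tbGFP-positive cells (adjusted p = 0.0132). Against 0 h, neither time was called with all libraries and TMM factors. At 6 h the values were -0.25 ± 0.16 (adjusted p = 0.452) in tbGFP-negative and -0.26 ± 0.15 (adjusted p = 0.326) in tbGFP-positive cells, and at 24 h 0.34 ± 0.15 (adjusted p = 0.346) and 0.46 ± 0.15 (adjusted p = 0.282). The low level of Slc12a2 at 6 h in tbGFP-negative cells was called with library totals (-0.60, or -0.33 relative to the shift of all genes, adjusted p = 0.0465) and with only the groups compared (-0.36, adjusted p = 0.0345). The gap between fractions was 0.31 ± 0.15 (adjusted p = 0.339) at 0 h, 0.31 ± 0.16 (adjusted p = 0.206) at 6 h and 0.43 ± 0.15 (adjusted p = 0.169) at 24 h. The interaction values were -0.01 ± 0.22 at 6 h and 0.12 ± 0.22 at 24 h. The tbGFP-negative call was lost without any 1 of the 6 tbGFP-negative libraries (adjusted p = 0.0519 to 0.308) or without replicate 2 of tbGFP-positive cells at 24 h (adjusted p = 0.0691). The tbGFP-positive call was lost without replicate 1 or 2 of tbGFP-positive cells at 24 h (adjusted p = 0.0741 and 0.0603). The gap at 24 h was called without replicate 1 or 2 of tbGFP-positive cells at 6 h (adjusted p = 0.0213 and 0.0208) and by DESeq2 (adjusted p = 0.0375). The size of the Slc12a2 gap depended on the scaling: with upper-quartile factors it was -0.07, -0.02 and 0.24 at 0, 6 and 24 h, and with library totals -0.12, 0.29 and 0.01, so its sign turned at 0 h with both and at 6 h with upper-quartile factors. Relative to the shift of all genes these values were 0.28, 0.30 and 0.43, and 0.29, 0.31 and 0.43.

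Slc9a9 encodes a sodium-proton exchanger of endosomes, and its RNA was found almost only in tbGFP-positive cells. The 250 bases before its annotated start, from RefSeq, are shown because its levels separated the fractions most clearly of the 6 genes. Capitals mark TGANTCA, a loose form of the AP-1 motif with any base at its centre, on either strand. The match here has A at the centre and is not called an AP-1 site.
Slc9a9 promoter (chr9:94669642-94669891, plus strand): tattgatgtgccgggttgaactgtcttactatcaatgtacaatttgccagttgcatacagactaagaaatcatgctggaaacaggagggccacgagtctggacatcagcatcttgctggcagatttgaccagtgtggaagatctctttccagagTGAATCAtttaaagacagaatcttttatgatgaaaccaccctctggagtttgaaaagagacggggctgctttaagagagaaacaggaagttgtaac
This window held 3 CpG dinucleotides, against a median of 6 and quartiles of 2 and 16 over 32851 promoter windows of the same length. The letters TGANTCA began 96 bases before the start and stood in 6.75% of all windows. The letters GATTNAATC, a core of the Dux motif found in 0.247% of windows, were not in this window. Among the members they stood in 1 of the windows of Sgk1, 120 bases before that start. A match or its absence is a description of these letters only, and which start the cells used was not measured.

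Slc9a9 had 103 and 79 counts in the tbGFP-positive libraries at 0 h, 83 and 61 counts at 6 h, and 125 and 154 counts at 24 h. In the tbGFP-negative libraries it had 0 counts in both at 0 h, 0 and 2 counts at 6 h, and 0 counts in both at 24 h. The fractions did not overlap at any time. On the CPM scale the tbGFP-positive libraries were at 19.7 and 19.4 CPM at 0 h, 24.95 and 8.62 CPM at 6 h, and 22.1 and 22.6 CPM at 24 h. The replicates at 6 h thus lay far apart, and those at 0 and 24 h close together. Against the tbGFP-negative group, Slc9a9 was at least 75.2-fold higher at 0 h (adjusted p = 0.000166) and at least 131-fold higher at 24 h (adjusted p = 6.13e-05), each computed against a floor of 3 counts over that group. At 6 h the ratio was 74.8, with a 95% counting interval of 20.3 to 624 (adjusted p = 0.000571). This last call was lost when only the 4 libraries at 6 h were fitted (adjusted p = 0.0945).

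Within tbGFP-positive cells no change of Slc9a9 with sorbitol was called: the log2 fold change was -0.24 ± 0.63 at 6 h (adjusted p = 0.865) and 0.19 ± 0.62 at 24 h (adjusted p = 0.974), both against 0 h. In tbGFP-negative cells at 24 h the 2-cell-like markers had reached 520 and 546 CPM, against 20683 and 22366 CPM in tbGFP-positive cells, and Slc9a9 had 0 counts, which allows up to 0.170 CPM over the group. Of its 607 counts, 603 lay on Slc9a9-201, its only transcript annotated as coding, which has 16 exons. Gm16262, an antisense gene that overlaps it, had 0 counts in all libraries.

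Atp1b1, the beta subunit of the sodium pump, rose in tbGFP-negative cells and stayed higher at 24 h. The 250 bases before its annotated start are shown as those of the gene with the clearest increase after sorbitol among the members. Capitals mark GGGCGG, the GC box, and CCAAT, the CCAAT box, on either strand.
Atp1b1 promoter (chr1:164458356-164458605, minus strand): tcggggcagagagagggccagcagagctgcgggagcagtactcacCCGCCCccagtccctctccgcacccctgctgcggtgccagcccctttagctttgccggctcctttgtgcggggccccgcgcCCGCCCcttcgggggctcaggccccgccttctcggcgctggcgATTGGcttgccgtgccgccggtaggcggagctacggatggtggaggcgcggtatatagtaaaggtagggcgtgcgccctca
The window held 24 CpG dinucleotides, above the upper quartile of all windows. It held the GC box at 205 and 124 bases before the start, in letters found in 32.7% of windows, and the CCAAT box at 81 bases before it, in letters found in 33.8%. TonE, the motif of the osmotic response factor encoded by Nfat5, was present in 4.31% of windows and absent from this one.

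In tbGFP-negative cells Atp1b1 was at 68.8 and 70.9 CPM at 0 h, 128 and 136 CPM at 6 h, and 134 and 127 CPM at 24 h. In tbGFP-positive cells it was at 79.6 and 78.8 CPM at 0 h, 112 and 132 CPM at 6 h, and 92.1 and 93.4 CPM at 24 h. In both fractions the libraries at 0 h were below all later ones, and only in tbGFP-positive cells were the libraries at 24 h below those at 6 h. The tbGFP-negative cells at 0 h had the lowest mean, followed by tbGFP-positive cells at 0 h, at 24 h and at 6 h, and then by tbGFP-negative cells at 24 h and 6 h, and the last 3 overlapped with their neighbours.

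The log2 fold change of Atp1b1 in tbGFP-negative cells was 0.92 ± 0.18 at 6 h (adjusted p = 0.00893) and 0.90 ± 0.18 at 24 h (adjusted p = 0.00869), both against 0 h. From 6 to 24 h it was -0.02 ± 0.18 (adjusted p = 0.977). In tbGFP-positive cells it was 0.63 ± 0.18 at 6 h (adjusted p = 0.0539), 0.23 ± 0.18 at 24 h (adjusted p = 0.790) and -0.40 ± 0.18 from 6 to 24 h (adjusted p = 0.165). A change over time was thus called in tbGFP-negative cells only, but the interaction, -0.29 ± 0.26 at 6 h (adjusted p = 0.662) and -0.67 ± 0.26 at 24 h (adjusted p = 0.634), was not called. Between fractions the values were 0.18 ± 0.18 at 0 h (adjusted p = 0.735), -0.11 ± 0.18 at 6 h (adjusted p = 0.739) and -0.49 ± 0.18 at 24 h (adjusted p = 0.193). The calls at 6 and 24 h were lost without replicate 1 or 2 of tbGFP-negative cells at 0 h, and without replicate 1 or 2 at the later time (adjusted p = 0.0952 to 0.145 at 6 h and 0.103 to 0.187 at 24 h), and the call at 6 h was lost with library totals in place of TMM factors (0.57, or 0.85 relative to the shift of all genes, adjusted p = 0.106). Without replicate 1 of tbGFP-positive cells at 6 h, the increase in those cells was called (adjusted p = 0.0232), as it was by DESeq2 with all libraries (adjusted p = 0.00698). The gap at 24 h was called with upper-quartile factors (-0.69, adjusted p = 0.0483) and with library totals (-0.92, adjusted p = 0.00518), but these moved the median of all genes by -0.19 and -0.42, and relative to that shift the Atp1b1 value was -0.49 with both.

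**Figure D3:**
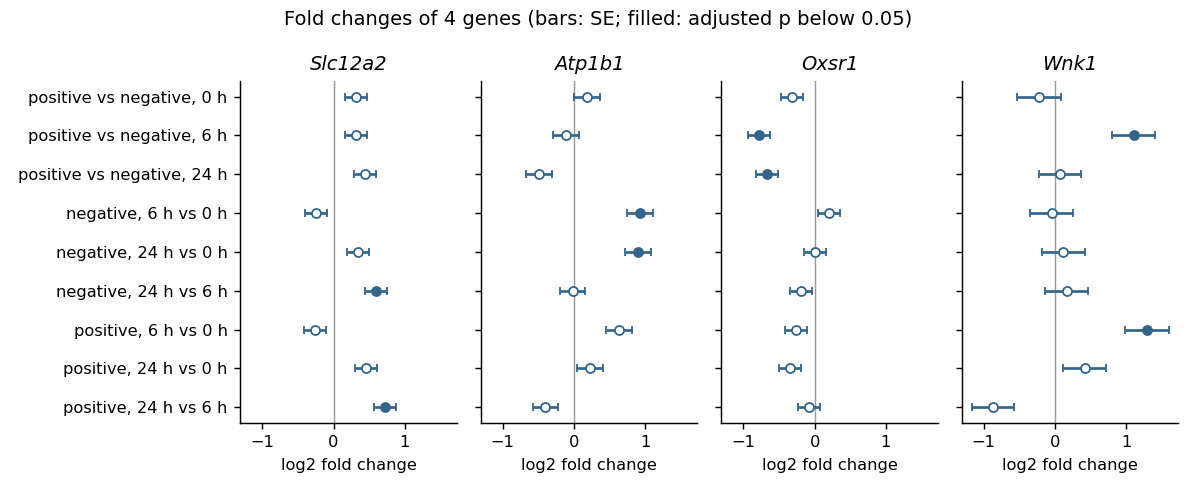
Log2 fold changes (x axis) of 4 genes in 9 comparisons (rows), first group minus second, with bars of 1 SE and filled points for an adjusted p below 0.05. Atp1b1 has its calls in tbGFP-negative cells against 0 h (0.92 and 0.90), and Oxsr1 between the fractions at 6 and 24 h (-0.78 and -0.66).

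Wnk1, the upstream kinase, stood out in tbGFP-positive cells at 6 h. It was at 42.4 and 55.5 CPM there, against 20.1 and 26.6 CPM in tbGFP-negative and 21.9 and 18.2 CPM in tbGFP-positive cells at 0 h. It was at 22.2 and 23.4 CPM in tbGFP-negative cells at 6 h, and at 25.1 and 25.9 CPM in tbGFP-negative and 24.7 and 28.9 CPM in tbGFP-positive cells at 24 h. The other 5 groups lay close together, and of these only tbGFP-positive cells at 0 h did not overlap with the next group by mean. The log2 fold change was 1.11 ± 0.30 between fractions at 6 h (adjusted p = 0.0266) and 1.29 ± 0.30 in tbGFP-positive cells at 6 h against 0 h (adjusted p = 0.0254). From 6 to 24 h it was -0.87 ± 0.30 in those cells (adjusted p = 0.0806). The interaction at 6 h was 1.33 ± 0.43 (unadjusted p = 0.00716 and adjusted p = 0.221 in edgeR, adjusted p = 0.0480 in DESeq2), and without replicate 1 of tbGFP-positive cells at 6 h its adjusted p was 0.0332.

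The Wnk1 counts came mostly from transcripts annotated as retained introns, which held 88.4% of its 2044 counts. Wnk1-226 (119944330 to 119950154) held 50.4% and Wnk1-225 (119930772 to 119933836) held 26.9%. Each is annotated as 1 exon within the gene, and no coding transcript of Wnk1 has more than 258 countable bases. In tbGFP-positive cells at 6 h, Wnk1-226 was at 27.7 and 25.02 CPM, against 7.63 to 16.4 CPM in the other 10 libraries. Both of these libraries were thus above all others for this transcript. Wnk1-225 was at 7.22 and 19.8 CPM in them and at 3.05 to 7.63 CPM in the others, so that 1 of the 2 stood apart. Transcripts of other kinds summed to 0.601 and 7.91 CPM at 6 h in tbGFP-positive cells, the latter all on 1 coding transcript with 27 countable bases, and to 0 to 4.97 CPM elsewhere. When retained-intron transcripts were left out, an alternative chosen after the data were seen, the log2 fold change was 0.28 between fractions at 6 h (adjusted p = 0.922) and 1.15 at 6 h against 0 h (adjusted p = 0.615). Over all genes, retained-intron transcripts took 2.74% and 2.30% of the counts in tbGFP-positive libraries at 6 h, within the range of 2.30% to 4.51% over the other 10. The Wnk1 values are therefore mostly counts on these annotated retained introns, and the coding mRNA was hardly countable. Which kind of RNA gave these counts was not tested.

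The call between fractions at 6 h was lost without replicate 1 or 2 of tbGFP-negative cells at 6 h (adjusted p = 0.181 and 0.146) or at 24 h (adjusted p = 0.0540 and 0.0549), and with upper-quartile factors the log2 fold change was 0.78 (adjusted p = 0.0864), 1.11 relative to the shift of all genes. The call for Wnk1 in tbGFP-positive cells against 0 h was lost without replicate 1 or 2 of that group at 0 h (adjusted p = 0.0630 and 0.122), of tbGFP-negative cells at 6 h (adjusted p = 0.0607 and 0.0610) or at 24 h (adjusted p = 0.0597 and 0.0596), and without replicate 2 of tbGFP-positive cells at 24 h (adjusted p = 0.0543).

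**Figure D4:**
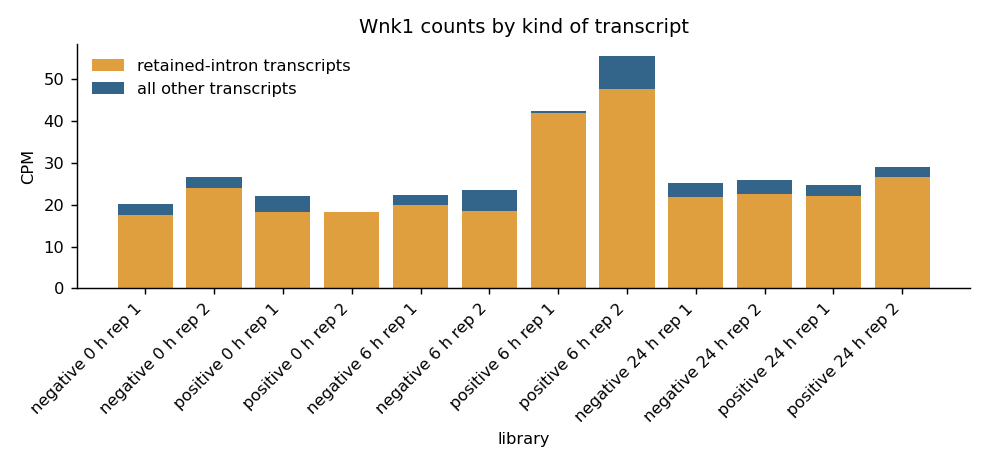
Wnk1 levels in CPM (y axis) in each of the 12 libraries (x axis), stacked by transcripts annotated as retained introns (orange) and all other transcripts (blue). The retained-intron part reached 41.8 and 47.6 CPM in tbGFP-positive cells at 6 h and 17.5 to 26.6 CPM in the other libraries.

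Oxsr1, the kinase between the WNK kinases and Slc12a2, was lower in tbGFP-positive cells. The 250 bases before its annotated start are shown as those of the only member called lower in tbGFP-positive cells. Capitals mark GGGCGG, the GC box, and TGACGTCA, the cAMP response element, on either strand.
Oxsr1 promoter (chr9:119322428-119322677, minus strand): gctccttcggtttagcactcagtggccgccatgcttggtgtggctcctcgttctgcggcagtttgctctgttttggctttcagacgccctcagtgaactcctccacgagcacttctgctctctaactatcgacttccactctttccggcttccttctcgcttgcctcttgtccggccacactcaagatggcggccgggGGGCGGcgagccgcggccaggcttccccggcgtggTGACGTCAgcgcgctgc
The window held 21 CpG dinucleotides, again above the upper quartile. It held the cAMP response element letters at 17 bases before the start, in letters found in 1.55% of all windows, and the GC box at 52 bases before it. The same cAMP response element letters stood 108 bases before the start of Lrrc8a and before no other member of the 7 found in the RefSeq table. TonE letters stood only before Stk39, at 227 bases, among these 7.

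In tbGFP-negative cells Oxsr1 was at 231 and 225 CPM at 0 h, 273 and 253 CPM at 6 h, and 234 and 225 CPM at 24 h. In tbGFP-positive cells it was at 175 and 193 CPM at 0 h, 153 and 154 CPM at 6 h, and 149 and 141 CPM at 24 h. All 6 tbGFP-positive libraries lay below all 6 tbGFP-negative ones. By mean the order was tbGFP-positive at 24 h, 6 h and 0 h, then tbGFP-negative at 0 h, 24 h and 6 h, and of neighbours only tbGFP-negative cells at 0 and 24 h overlapped. The log2 fold change between fractions was -0.31 ± 0.16 at 0 h (adjusted p = 0.348), -0.78 ± 0.16 at 6 h (adjusted p = 0.00388) and -0.66 ± 0.16 at 24 h (adjusted p = 0.0155). The gap was thus called in sorbitol and not before it, but the interaction, -0.47 ± 0.22 at 6 h (adjusted p = 0.375) and -0.35 ± 0.22 at 24 h (adjusted p = 1.00), was not called.

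Over time Oxsr1 was not called in either fraction. In tbGFP-negative cells the log2 fold change was 0.20 ± 0.15 at 6 h (adjusted p = 0.569) and 0.01 ± 0.15 at 24 h (adjusted p = 1), and in tbGFP-positive cells -0.26 ± 0.16 (adjusted p = 0.319) and -0.34 ± 0.16 (adjusted p = 0.499), all against 0 h. Nearly all of the Oxsr1 counts, 98.9%, lay on its coding transcript Oxsr1-201. Slc22a14, which the annotation places over the same stretch on the same strand, had 7 counts in all. The gap at 0 h rested on the scaling: with upper-quartile factors it was -0.69 (adjusted p = 0.0132) and with library totals -0.75 (adjusted p = 0.0058). These scalings moved the median of all genes by -0.35 and -0.41, and relative to that shift the Oxsr1 values were -0.34 and -0.34. The call at 6 h was lost when the 4 libraries of that time were fitted alone (adjusted p = 0.134). The call at 24 h was lost without replicate 1 or 2 of tbGFP-negative cells at 24 h (adjusted p = 0.283 and 0.195), replicate 1 or 2 of tbGFP-positive cells at 24 h (adjusted p = 0.0880 and 0.243) or replicate 2 of tbGFP-negative cells at 0 h (adjusted p = 0.0625).

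Stk39, the close relative of Oxsr1, had 2 counts in 1 library of tbGFP-positive cells at 24 h and 0 in the other 11. Its coding transcript Stk39-201 has 331 countable bases and had 0 counts, while Oxsr1-201 has 2343 and had 14457. With 0 counts a group allows Stk39 up to 0.170 to 0.322 CPM, and since few bases could be counted this is a limit on those bases only.

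Sgk1, a kinase gene that many stresses and hormones induce, had 0 to 35 counts per library. In tbGFP-negative cells it had 9 counts in both libraries at 0 h, 2 and 1 counts at 6 h, and 33 and 15 counts at 24 h. In tbGFP-positive cells it had 4 counts in both libraries at 0 h, 0 and 35 counts at 6 h, and 10 and 26 counts at 24 h. The 2 replicates of tbGFP-positive cells at 6 h thus held both the lowest and the highest count. All 35 counts of replicate 2 lay on Sgk1-205, a short annotated coding transcript with 112 countable bases, which had 0 to 10 counts in the other libraries. The ratio of tbGFP-positive to tbGFP-negative cells at 6 h was 12.1, with a 95% counting interval of 3.82 to 61.6, but it rested on that 1 library and was not called (adjusted p = 0.191). In tbGFP-negative cells the ratio of 0 h to 6 h was 5.63 (interval 1.64 to 29.8, adjusted p = 0.384) and that of 24 h to 6 h was 9.82 (interval 3.16 to 49.3, adjusted p = 0.251). The intervals cover counting error only. Without replicate 1 of tbGFP-positive cells at 6 h, Sgk1 was called between fractions at 6 h (adjusted p = 0.0142), in the interaction at 6 h (adjusted p = 0.0436) and in tbGFP-negative cells from 6 to 24 h (adjusted p = 0.0400).

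The members were set beside 78 other genes of ion transport and volume control in 9 roles, of which 73 had counts and 47 were tested. Between fractions, edgeR called 3 of the 47 higher and 1 lower in tbGFP-positive cells at 0 h, where 7.11% of all genes were called. It called 2 higher and 3 lower at 6 h (12.1% of all genes), and 2 higher and 0 lower at 24 h (5.46%). Of 6 tested genes of the WNK pathway, 1 was called at each time, Cab39, and of 11 tested anion channel genes 1 was called at 0 h and 2 at 6 h. The list's median log2 fold change was 0.08, -0.26 and 0.04 at 0, 6 and 24 h, and -0.26 also with genes at 0 in a group at their bound at 6 h. In tbGFP-negative cells 1 of the 47 was called higher and 0 lower at 6 h against 0 h (4.44% of all genes), 2 higher and 0 lower at 24 h against 0 h (3.99%), and 1 higher and 2 lower from 6 to 24 h (7.91%). In tbGFP-positive cells the calls were 1 higher and 2 lower at 6 h against 0 h (5.9% of all genes), and 2 higher and 0 lower from 6 to 24 h (8.8%). The list's counts were thus small numbers out of 47, and nothing particular to the list is read from them. DESeq2 called more in several comparisons: 7 higher and 1 lower from 6 to 24 h in tbGFP-positive cells, 2 higher and 3 lower there at 6 h against 0 h, and 3 higher and 1 lower in tbGFP-negative cells at 24 h against 0 h. In tbGFP-positive cells at 24 h against 0 h edgeR called 0 of the 47, where 0.552% of all genes were called. There 6 of the 47 had an unadjusted p under 0.05, and DESeq2 called 0. 

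Cab39, the scaffold that binds and activates the Oxsr1 and Stk39 kinases, was higher in tbGFP-positive cells, the opposite side from Oxsr1. It was at 215 and 234 CPM against 117 and 124 CPM at 0 h, 197 and 212 CPM against 147 and 124 CPM at 6 h, and 252 and 224 CPM against 150 and 137 CPM at 24 h. All tbGFP-positive libraries lay above all tbGFP-negative ones. The log2 fold change was 0.90 ± 0.17 at 0 h (adjusted p = 0.0024), 0.59 ± 0.17 at 6 h (adjusted p = 0.0334) and 0.73 ± 0.17 at 24 h (adjusted p = 0.0135). With upper-quartile factors the Cab39 values were 0.51 (adjusted p = 0.0996), 0.26 (adjusted p = 0.330) and 0.54 (adjusted p = 0.125), and these factors moved the median of all genes by -0.35, -0.33 and -0.19. Library totals ended the calls at 0 h (0.46, adjusted p = 0.113) and 24 h (0.30, adjusted p = 0.379). They moved that median by -0.41 and -0.42. The top transcript alone ended those at 6 and 24 h (adjusted p = 0.0940 and 0.139). Leaving out retained-intron transcripts ended that at 24 h (adjusted p = 0.0748). At 6 h the call was lost without the filter (adjusted p = 0.124) and with only the groups compared (adjusted p = 0.184). The Cab39 call at 6 h was also lost without any 1 of the 6 tbGFP-negative libraries or replicate 2 of tbGFP-positive cells at 24 h (adjusted p = 0.0547 to 0.275). That at 24 h was lost without replicate 1 or 2 of tbGFP-negative or replicate 1 of tbGFP-positive cells at 24 h (adjusted p = 0.0543 to 0.149).

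Atp1a4, a sodium pump alpha subunit known from sperm, was at 22.2 and 14.8 CPM in tbGFP-positive against 53.3 and 56.1 CPM in tbGFP-negative cells at 6 h (-1.58 ± 0.39, adjusted p = 0.0161). It lost its call without replicate 1 or 2 of tbGFP-negative cells at 6 h (adjusted p = 0.0657 and 0.0782).

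Aqp3, a water and glycerol channel, was the gene of the list with the largest called rise in tbGFP-negative cells against 0 h. It went from 12.3 and 8.26 CPM at 0 h to 64.5 and 70.9 CPM at 6 h and 71.7 and 62.4 CPM at 24 h (2.77 ± 0.55, adjusted p = 0.00876, and 2.76 ± 0.54, adjusted p = 0.00754). In tbGFP-positive cells Aqp3 was already at 46.7 and 52.7 CPM at 0 h, above tbGFP-negative cells (2.32 ± 0.54, adjusted p = 0.0128), and its 2 values at 6 h, 22.2 and 125 CPM, lay far apart. The Aqp3 calls were lost without replicate 1 or 2 of tbGFP-negative cells at 0 h (adjusted p = 0.0652 to 0.265), without replicate 1 or 2 of tbGFP-negative cells at 6 h for the rise at 6 h (adjusted p = 0.0706 and 0.0802), without replicate 1 of tbGFP-negative cells at 24 h for the rise at 24 h (adjusted p = 0.0678), and without replicate 1 or 2 of tbGFP-positive cells at 0 h for the gap (adjusted p = 0.0570 and 0.0869). Slc4a4, a sodium-bicarbonate cotransporter, was at 21.9 and 19.2 CPM in tbGFP-positive against 4.46 and 0.452 CPM in tbGFP-negative cells at 0 h (3.38 ± 0.84, adjusted p = 0.0203) and at 23.2 and 30.8 against 1.24 and 1.90 CPM at 24 h (4.10 ± 0.81, adjusted p = 0.00403). The top transcript alone ended both calls (2.72, adjusted p = 0.134, at 0 h and 3.05, adjusted p = 0.0779, at 24 h). The Slc4a4 call at 0 h was lost without replicate 2 of tbGFP-negative cells at 0 h (adjusted p = 0.270), replicate 1 or 2 of tbGFP-positive cells at 0 h (adjusted p = 0.0866 and 0.0732) or replicate 2 of tbGFP-positive cells at 24 h (adjusted p = 0.0541), and that at 24 h without replicate 1 of tbGFP-negative cells at 24 h (adjusted p = 0.0949).

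**Figure D5:**
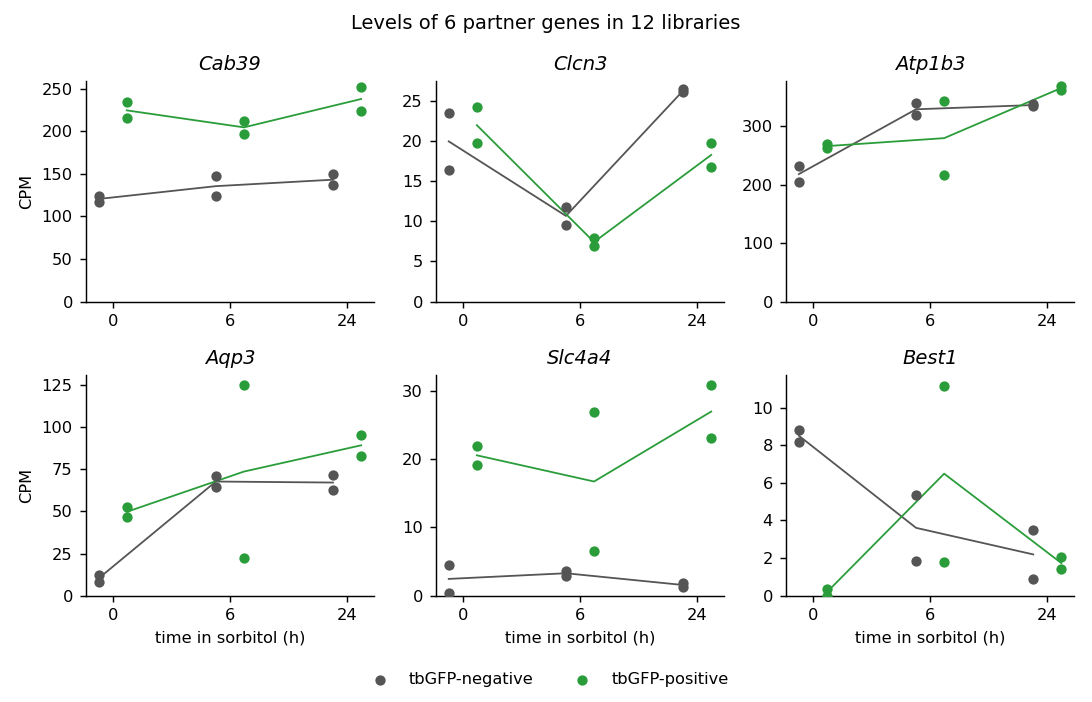
Levels in CPM (y axis) of 6 other genes of ion transport and volume control by hours of sorbitol (x axis, evenly spaced categories), 1 point per library and lines through group means, in tbGFP-negative (grey) and tbGFP-positive (green) cells. Cab39 lies at 197 to 252 CPM in tbGFP-positive and 117 to 150 CPM in tbGFP-negative libraries.

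Among channels, most calls were of genes with low levels. Several were in comparisons with the tbGFP-positive libraries at 6 h, which held the fewest genes, and the part of that low gene number was not tested. Trpm7, a channel that carries its own kinase domain, and Clcn7, a lysosomal chloride-proton exchanger, each had 28 counts in tbGFP-negative cells at 6 h and 0 in the tbGFP-positive ones, a level at least 8.98-fold lower (adjusted p = 0.00942 and 0.0439). The Clcn7 call was lost without any 1 library but 3, those 3 being the tbGFP-positive ones at 0 h and replicate 1 of those at 6 h (adjusted p = 0.0613 to 0.132). Within tbGFP-positive cells, Trpm7 at 6 h was at least 12.7-fold lower than at 0 h (adjusted p = 0.0155), and its level at 24 h was at least 12.2-fold higher than at 6 h (adjusted p = 0.0126). This last call was lost without replicate 1 or 2 of tbGFP-positive cells at 24 h (adjusted p = 0.0572 and 0.0556). The Trpm7 calls rested on retained-intron transcripts: without them the gap at 6 h was -3.79 (adjusted p = 0.303), the rise from 6 to 24 h had an adjusted p of 0.0880, and both tbGFP-positive groups at 0 and 6 h had 0 counts. Clcn3, a chloride-proton exchanger of endosomes, was lower at 6 h than at 24 h in both fractions. In tbGFP-negative cells it was at 9.53 and 11.8 CPM at 6 h and 26.5 and 26.0 CPM at 24 h (1.30 ± 0.36, adjusted p = 0.0402), and in tbGFP-positive cells at 6.91 and 7.91 CPM at 6 h and 19.8 and 16.7 CPM at 24 h (1.29 ± 0.38, adjusted p = 0.0454). The tbGFP-positive value of Clcn3 at 6 h was also below that at 0 h (-1.56 ± 0.38, adjusted p = 0.0281). In both fractions Clcn3 lost its call from 6 to 24 h without any 1 tbGFP-negative library and without replicate 1 or 2 of tbGFP-positive cells at 24 h (adjusted p = 0.0568 to 0.315 in tbGFP-negative and 0.0566 to 0.211 in tbGFP-positive cells). It lost the call against 0 h without replicate 1 of tbGFP-positive cells at 0 h or at 24 h (adjusted p = 0.0701 and 0.0528).

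Lrrc8b, a partner subunit of the Lrrc8a channel, was at 23.5 and 18.4 CPM in tbGFP-positive against 5.85 and 4.97 CPM in tbGFP-negative cells at 6 h (1.94 ± 0.57, adjusted p = 0.0377). Its call was lost without any 1 of the 6 tbGFP-negative libraries and without replicate 1 or 2 of tbGFP-positive cells at 0 h (adjusted p = 0.0501 to 0.211). Best1, a calcium-activated chloride channel, had 2 and 0 counts in the tbGFP-positive libraries at 0 h. Its level was higher in tbGFP-negative cells at 0 h by a ratio of 40.3 (interval 10.9 to 338, adjusted p = 0.0236), and by 38.0 in tbGFP-positive cells after 6 h (interval 10.2 to 319, adjusted p = 0.0446). The Best1 values at 6 h, 1.80 and 11.2 CPM, lay far apart. The first Best1 call was lost without any 1 of the 4 libraries at 0 h (adjusted p = 0.0684 to 0.181), and the other without any 1 library but replicate 1 of tbGFP-positive cells at 6 h (adjusted p = 0.0610 to 0.182). Kcnk5, a potassium channel of cell volume control, was at 259 and 317 CPM at 6 h and 152 and 154 CPM at 24 h in tbGFP-negative cells (-0.91 ± 0.27, adjusted p = 0.0497). Clns1a, a chaperone of splicing complexes once described as a chloride channel regulator, was at 125 and 115 against 68.6 and 67.2 CPM there (-0.82 ± 0.20, adjusted p = 0.0213). Both genes lost these calls without replicate 1 or 2 of tbGFP-negative cells at 6 h or at 24 h (adjusted p = 0.107 to 0.287 for Kcnk5 and 0.0730 to 0.130 for Clns1a). Kcnk5 also lost its call without replicate 1 of tbGFP-negative cells at 0 h (adjusted p = 0.0699) and without replicate 1 or 2 of tbGFP-positive cells at 24 h (adjusted p = 0.0729 and 0.0521), and both lost it with library totals (adjusted p = 0.239 and 0.270).

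For each member the 3 coding genes with the most similar pattern were those with the highest Pearson r of log2(CPM + 1) over the 12 libraries, among 12056 genes with at least 50 counts in all. For Slc9a9 they were Mrgprx2 (r = 0.989), Serpinb1c (r = 0.988) and BC147527 (r = 0.987), and for Slc12a2 Man1a2 (r = 0.937), Eepd1 (r = 0.931) and Zfp950 (r = 0.922). For Atp1b1 they were Ypel5 (r = 0.942), Bcl2l11 (r = 0.940) and Phf13 (r = 0.922), and for Oxsr1 Usp46 (r = 0.933), Ppih (r = 0.929) and Prkci (r = 0.925). For Wnk1 they were Ppp1r1c (r = 0.912), Dlx2 (r = 0.910) and 5430419D17Rik (r = 0.906), and for Sgk1 Nlgn2 (r = 0.877), Btbd8 (r = 0.872) and Clgn (r = 0.858). No other member was among them. The values describe 12 libraries that share their scaling and depth, and the highest of so many correlations is high by choice. The r of Slc9a9 follows the split between the fractions, and that of Wnk1 the 2 libraries in which it was high.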

How the data were processed

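Total RNA of 12 libraries was sequenced from a stranded kit, per the labels' protocols. Per the submitters' processing notes, the tools were FastQC, HISAT2, featureCounts and DESeq2, named without versions or order, and the build was mm10. The authors deposited raw counts per Ensembl transcript. The settings for strand and shared reads are not given in the sources used here.

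The design assumed counts per gene. Transcript counts were therefore summed per gene with GENCODE M21 (GRCm38): 141536 of 142446 transcripts matched, and the rest, 0.0606% to 0.0903% of a library's counts, was left out. Countable bases were exon bases covered by 1 annotated transcript on either strand. Of 564 transcripts with 200 such bases in a row on their own strand but none on either strand, 0 had counts.

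All 12 libraries were fitted with edgeR 4.0.16 (R 4.3.3): TMM factors, robust quasi-likelihood F test, a mean for each group, a minimum of 10 counts in 2 or more libraries, Benjamini-Hochberg adjustment within each comparison, threshold 0.05. The script was tested on simulated data. CPM use TMM library sizes, and 3 counts correspond to 0.380 to 1.30 CPM in single libraries before that scaling. The groups hold 2 libraries each, so SDs and SEs are imprecise. Promoters are from RefSeq (GRCm38.p6), which held 7 of the 8 genes, and 7 motifs were searched on both strands.

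The genes and lists were chosen with earlier results of these data known. By rule, except for 1 gene that is not reported here, the text names the 8 genes, per comparison up to 3 called rises and 3 called falls of the list of 78, and 3 similar genes per member. Alternatives were upper-quartile factors, library totals, DESeq2 1.42.0, no filter, a filter at 30 counts, only the groups compared, the replicate block, the top transcript, each library left out, both tbGFP-positive libraries at 6 h left out, and, added after seeing the data, no retained-intron transcripts.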

Additional observations from a re-analysis of the deposited data

How the results depend on the processing

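Of the 11 calls of members, 2 (Slc9a9 at 0 and 24 h between fractions) kept their direction and call in all alternatives run, which is no sign of stability since Slc9a9 passed the filter through its tbGFP-positive libraries alone, 0 reversed, and 9 lost the call in at least 1. Of 54 uncalled values, 10 were called in at least 1 alternative and 25 changed sign in at least 1. Of 22 calls of genes of the list of 78, 0 kept the call in all alternatives and 0 reversed. Of the 6 tested members, the number called between fractions was 1 at 0 h and 2 with upper-quartile factors or library totals. At 6 h it was 3, and 0 with only the groups compared. The Wnk1 call at 6 h also ended with upper-quartile factors (adjusted p = 0.0864) and without the filter (adjusted p = 0.0656). Leaving out retained-intron transcripts ended it as well (adjusted p = 0.922). At 24 h the number of members called was 2, and 1 without the filter. That number was 3 with upper-quartile factors, library totals, DESeq2, only the groups compared or without both 6 h libraries of tbGFP-positive cells. For tbGFP-negative cells at 6 h against 0 h it was 1, and 2 with only the groups compared. There library totals ended the Atp1b1 call and added one of Slc12a2. From 6 to 24 h it was 1, 0 with upper-quartile factors or without the filter, and 2 with only the groups compared or without both tbGFP-positive libraries at 6 h. In tbGFP-positive cells at 6 h against 0 h it was 1, 2 with library totals, DESeq2 or a minimum of 30 counts, and 0 without the filter, with only the groups compared, with the top transcript or without retained introns. From 6 to 24 h it was 1, 2 with DESeq2 or a minimum of 30 counts, and 0 with only the groups compared. The interaction at 6 h gave 0, and 1 with DESeq2. Leaving out 1 library gave 1 to 1, 2 to 4 and 1 to 3 between fractions at 0, 6 and 24 h. It gave 0 to 1, 0 to 1 and 0 to 2 in tbGFP-negative cells (6 against 0 h, 24 against 0 h, 24 against 6 h), 0 to 2, 0 to 0 and 0 to 2 in tbGFP-positive cells, and 0 to 2 and 0 to 0 for the interactions at 6 and 24 h. Groups left with 1 library were assumed to vary like the others. Slc9a9 had no value in tbGFP-negative cells at 24 h against 0 h, nor at 6 h against 0 h without replicate 2, and Trpm7 had none at 6 h against 0 h in tbGFP-positive cells without retained introns, since both groups had 0 counts. Sgk1, Slc9a9, Best1, Clcn3 and Clcn7 each fell below the filter in at least 1 alternative and then had no value there.

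Same-numbered libraries did not deviate together (correlations of -0.0560 to 0.0720 over all pairs of groups), so the numbers were not read as pairing samples. With the replicate block the number of members called was the same in all 11 comparisons, 1, 3 and 2 between fractions at 0, 6 and 24 h among them. Of the other transport genes, the block ended the calls of Clcn7 between fractions at 6 h (adjusted p = 0.0643), Clcn3 from 6 to 24 h in tbGFP-negative and tbGFP-positive cells (0.0563 and 0.0647), Kcnk5 (0.0634) and Best1 in tbGFP-positive cells at 6 h against 0 h (0.0647). Scaling moved the median of all genes between fractions at 0 h from 0 to -0.35 (upper-quartile factors) and -0.41 (library totals), where 1291 genes were called higher and 87 lower with TMM, 1080 and 620 (upper-quartile factors), or 1078 and 811 (library totals). At 6 h the split was 1342 and 1012 with TMM and 1182 and 2454 with upper-quartile factors, and at 24 h 1037 and 22 with TMM and 884 and 422 with library totals. In tbGFP-negative cells at 6 h against 0 h it was 625 and 235 with TMM and 339 and 576 with library totals. Sgk1, Stk39 and Lrrc8a are limited by their counts.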
